A study of Mus musculus with 6 samples.

Results

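The genes described here are 10 members of the oxidative stress response governed by Nrf2, taken by symbol from the 32285 gene identifiers in the count matrices: Nfe2l2, Srxn1, Txnrd1, Slc7a11, Hmox1, Gclm, Gclc, Nqo1, Gsr and Prdx1. The members were chosen by a working list drawn up from this pathway with the cko and ctr counts of these samples, in macrophages above all, already in view. Every measure from that contrast therefore counts as used in choosing them, and their values between those groups are a description, with fitted fold changes and standard errors (SE) and no p-value. The number of members past the threshold of the fit over all genes is printed for each class only beside the share of all genes past it, and nothing is read from that number, or from its gain or loss when the processing changed, in any class or subset.

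Leukocytes carrying CD45 were sorted live from MC38 tumours, a mouse colon adenocarcinoma line grown under the skin, on day 25 after inoculation. They were sequenced as single cells by the droplet 5′ method together with T cell receptor transcripts. Control mice (ctr) carried intact Ctcf in Treg cells and the other mice (cko) a tamoxifen-inducible knockout of Ctcf in Treg cells, with 3 biological replicates a group. CTCF organises chromatin loops, and Treg cells hold back the responses of other immune cells. The Cre driver, the age of the mice and whether ctr mice received tamoxifen are not given in the sources used here. The classes described below are macrophages, monocytes, conventional dendritic cells (cDC) and T cells. The labels place the deletion in none of the 3 myeloid classes, and the T cell class includes the Treg cells.

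Nrf2, the protein made from Nfe2l2, is a transcription factor that is held in the cytoplasm and degraded through its partner Keap1 in resting cells. Oxidants and electrophiles release it, and it then binds, with a small Maf protein, to antioxidant response elements near genes for glutathione synthesis, the thioredoxin system, haem breakdown and quinone reduction. Its control is largely at the level of the protein, so the mRNA of Nfe2l2 is not a reading of its activity. Some of these genes also answer to other programmes: ATF4, the factor of amino acid stress, acts on Slc7a11, and Bach1, which is released by haem, represses Hmox1.

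The 10 genes lie on 7 mouse chromosomes (GRCm38). Nfe2l2 spans chr2:75675513-75704641 on the minus strand and Srxn1 chr2:152105516-152111376 on the plus strand. Slc7a11 (chr3:49892526-50443614, minus) and Gclm (chr3:122245557-122270732, plus) share a chromosome, as do Gsr (chr8:33652523-33698163, plus), Hmox1 (chr8:75093621-75100589, plus) and Nqo1 (chr8:107388225-107403206, minus). Prdx1 lies at chr4:116685544-116700822, Gclc at chr9:77754535-77794485 and Txnrd1 at chr10:82833951-82897712, all on the plus strand. All 10 are annotated as protein-coding.

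The stretches before the start sites of Srxn1, Txnrd1, Prdx1 and Slc7a11 are shown because the first 3 hold a match to a sequence that Nrf2 is known to bind and Slc7a11 holds instead a match to the composite site of ATF4, and because Srxn1, Txnrd1 and Slc7a11 are the members that stood highest in cko over ctr. They come from RefSeq promoters on GRCm38.p6, each 250 bases before to 50 after a start site, of which 9 windows matched 7 of the 10 genes. Txnrd1 has 3 windows, and the one shown belongs to a start site inside the annotated gene: the window before the gene's first base (chr10:82833701-82833950) and that at chr10:82860091-82860340 hold no match. Hmox1, Gclc and Gsr have no entry. Capitals mark the matches, 5′ to 3′ on the strand of the gene.
Srxn1 (chr2:152105429-152105515, plus): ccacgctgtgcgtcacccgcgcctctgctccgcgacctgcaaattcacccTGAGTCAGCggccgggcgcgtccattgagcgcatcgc
Txnrd1 (chr10:82859064-82859172, plus): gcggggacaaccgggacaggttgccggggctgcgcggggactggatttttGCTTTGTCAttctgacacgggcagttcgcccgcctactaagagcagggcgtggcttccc
Prdx1 (chr4:116685416-116685524, plus): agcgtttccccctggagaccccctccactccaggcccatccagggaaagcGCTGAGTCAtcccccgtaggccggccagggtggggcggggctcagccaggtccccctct
Slc7a11 (chr3:50443615-50443729, minus): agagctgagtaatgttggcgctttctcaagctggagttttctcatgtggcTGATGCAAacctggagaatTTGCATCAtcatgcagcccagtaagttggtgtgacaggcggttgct

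Both strands were searched for 3 motifs. The core of the antioxidant response element, TGACNNNGC, was found in windows of 5 of the 7 members: Txnrd1 (starting 92 bases before the start site of that 1 window), Prdx1 (133 before), Gclm (134 before), Nfe2l2 (240 before) and Srxn1 (28 after). It is a loose pattern, held by 12.4% of the 32851 promoters of the same length and, counted by gene, by 14.0% of 27025 genes. The longer site of CNC and Maf factors, TGANTCAGC, was held by 1.19% of promoters and by 2 members, Srxn1 (45 before) and Prdx1, where it is the same stretch as the core match. The ATF4 composite site, TGATGCAA, was held by 0.895% of promoters and matched at 2 places in Slc7a11, on opposite strands at 66 and 47 bases before the start. A match of letters is a description of the sequence and not a measured binding site.

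The matrices held 41679 barcodes with 45322797 to 55515267 unique molecular identifiers (UMIs, one per captured transcript) per sample, and 37148 cells were kept. Cells were assigned by the number of marker genes they contained, which gave 6082 macrophages (4203 in ctr and 1879 in cko), 1471 monocytes (619 and 852), 746 cDC (551 and 195) and 15364 T cells (6705 and 8659). Macrophages made up 23.1% ± 6.58 of kept cells in ctr and 9.85% ± 4.40 in cko (SD, n = 3). Since the gate used the markers, their sums describe the classes and do not check the names: summed over 11 markers, macrophage genes reached 24285 to 29783 CPM (UMIs of a gene per 1000000 UMIs of the class and sample) in ctr macrophages and 11188 to 12940.3 CPM in cko macrophages, against 44.9 to 75.2 CPM in cDC. Assembled T cell receptors were not used by the gate, but its T cell markers include genes of the receptor chains. They are therefore not an independent check of the names. An assembled TCR β chain was carried by 83.1% to 89.3% of T cells, against at most 0.444% of cells in any myeloid class of any sample. Ctcf was measured at 33.9 to 36.8 CPM in ctr and 26.7 to 36.7 CPM in cko macrophages, and at 70.6 to 82.1 and 81.5 to 95.1 CPM in T cells. Foxp3, the factor that defines Treg cells, was at 14.9 to 28.8 CPM in ctr T cells and 6.82 to 9.96 CPM in cko T cells. The T cells of cko replicates 1 and 3 shared 199 paired receptor clonotypes, 82.1% and 69.8% of their receptor-bearing cells, while each of the other 14 pairs of libraries shared at most 3. Whether these 2 samples are independent cannot be told from the files, so cko may hold fewer than 3 independent samples, while every SD and SE here counts 3. Results were therefore also computed with these 2 samples added together. Any 2 libraries shared 41 to 81 cell barcodes.

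Across the 4 classes, Nfe2l2, Slc7a11, Hmox1, Srxn1 and Txnrd1 were higher in macrophages than in cDC and T cells, Prdx1 was higher than in T cells, and Gsr was lower than in monocytes. The difference of Srxn1 from T cells rested on the cko samples and was not called in ctr samples alone. Nfe2l2 itself was at 351 to 455 CPM over the 6 macrophage sums, 291 to 419 CPM in monocytes, 89.2 to 192 CPM in cDC and 28.3 to 36.0 CPM in T cells. Macrophages and monocytes overlapped, while cDC and T cells each lay apart from all other classes. With the sample as a block (edgeR quasi-likelihood test, 24 sums, Benjamini-Hochberg adjustment over 10777 genes), the log2 difference of macrophages was 1.62 (SE 0.10, adjusted p = 8.36e-12) over cDC and 3.85 (SE 0.11, adjusted p = 2.11e-19) over T cells, in 6 of 6 samples each.

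Slc7a11, the cystine transporter that feeds glutathione synthesis, had the widest range. Its log2 difference was 7.61 (SE 0.34, adjusted p = 2.67e-13) between macrophages and T cells and 1.795 (SE 0.27, adjusted p = 1.78e-05) between macrophages and cDC. Hmox1, which breaks haem down to biliverdin, iron and carbon monoxide, came next, at 4.58 (SE 0.29, adjusted p = 7.46e-11) over T cells and 3.15 (SE 0.32, adjusted p = 1.78e-07) over cDC. Both held in 6 of 6 samples. Neither difference between macrophages and monocytes passed the threshold when all 6 samples entered, with log2 differences of -0.23 (SE 0.24, adjusted p = 0.573) and -0.05 (SE 0.25, adjusted p = 0.93). In the 3 ctr samples alone, Slc7a11 was lower in macrophages than in monocytes by the same test (log2 difference -0.63, adjusted p = 0.0141).

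Gsr, which regenerates reduced glutathione with NADPH, was the one member that separated monocytes from macrophages. It stood at 105 to 191 CPM in the monocyte sums and 21.8 to 56.8 CPM in the macrophage sums, and no sample overlapped. The log2 difference was -1.74 (SE 0.21, adjusted p = 1.32e-05). Gsr was also somewhat higher in macrophages than in cDC (0.67 (SE 0.25, adjusted p = 0.0283)), in 6 of 6 samples, although in ctr samples alone that difference was 0.31 with an adjusted p of 0.269. It also missed the threshold without ctr replicate 1 or any one of the cko samples, with the 2 cko samples added together, with scaling by library size alone and with the stricter gate (adjusted p from 0.0555 to 0.0953, same test). Its difference between macrophages and T cells was 0.38 (SE 0.20, adjusted p = 0.0881), and in ctr samples alone it had the opposite sign (-0.11, adjusted p = 0.583). It passed without ctr replicate 2 (0.58, adjusted p = 0.0219) and without ctr replicate 3 (0.52, adjusted p = 0.0129), by edgeR's test.

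Srxn1 and Txnrd1, of the thioredoxin and peroxiredoxin system, were higher in macrophages than in cDC, by 2.37 (SE 0.58, adjusted p = 0.00204) and 0.84 (SE 0.25, adjusted p = 0.00754) on the log2 scale, and higher than in T cells, by 1.44 (SE 0.37, adjusted p = 0.00208) and 1.502 (SE 0.23, adjusted p = 7.90e-06). All were in 6 of 6 samples except Srxn1 against T cells, in 4 of 6. For Srxn1 the T cell difference rested on the cko samples: in ctr alone it was 0.16 with an adjusted p of 0.335, and ctr T cells had 8.94, 11.9 and 9.700 CPM against 9.68, 10.05 and 8.82 CPM in ctr macrophages. Prdx1, the abundant peroxiredoxin whose overoxidised form sulfiredoxin (Srxn1) repairs, was at 301 to 475 CPM in T cells and 435 to 546 CPM in macrophages, a log2 difference of 0.88 (SE 0.08, adjusted p = 7.58e-10), in 6 of 6 samples.

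The 2 subunits of glutamate-cysteine ligase, the first enzyme of glutathione synthesis, varied least. Gclm, the modifier subunit, was lower in macrophages than in T cells by a small margin, -0.26 (SE 0.08, adjusted p = 0.00773), in 6 of 6 samples, and missed the threshold without ctr replicate 2 (-0.21, adjusted p = 0.0580). Gclc, the catalytic subunit, had a log2 difference of -0.27 (SE 0.12, adjusted p = 0.0511), which passed the threshold in ctr samples alone (-0.39, adjusted p = 0.0104) and without cko replicate 1 (-0.36, adjusted p = 0.0181). Nqo1, the quinone reductase often used as a readout of Nrf2, passed no filter on low counts in any class: 0 to 3 UMIs were counted in each macrophage sum, 0 or 1 in each monocyte sum, none in any cDC sum and 2 to 12 in each T cell sum, so its level was not measurable in myeloid cells at this depth. A count of 0 allows, at 3 counts a sum, up to 0.243 to 1.18 CPM in the 5 macrophage sums at 0, 1.42 to 3.88 CPM in monocytes and 0.898 to 3.45 CPM in cDC, for counting error only.

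Counted over the 9 members that passed the filter, 1 was called lower and none higher in macrophages against monocytes, where 8.82% of all genes were lower and 8.13% higher (17% in either direction). Against cDC, 6 of 9 were higher and none lower, where 28.7% of genes were higher and 29.5% lower (58.2% either way). Against T cells, 6 were higher and 1 lower, where 36.1% of genes were higher and 43% lower (79.1% either way), so the number of members called against T cells is near that of genes at large. In that last contrast the median log2 difference of all genes was -0.10, and -0.40 when only library size was used for scaling. All of these counts include the cko sums that were in view when the members were listed. In ctr samples alone, Gsr was not called against cDC, nor Srxn1 against T cells. There Slc7a11 was called lower against monocytes and Gclc lower against T cells.

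**Figure D1:**
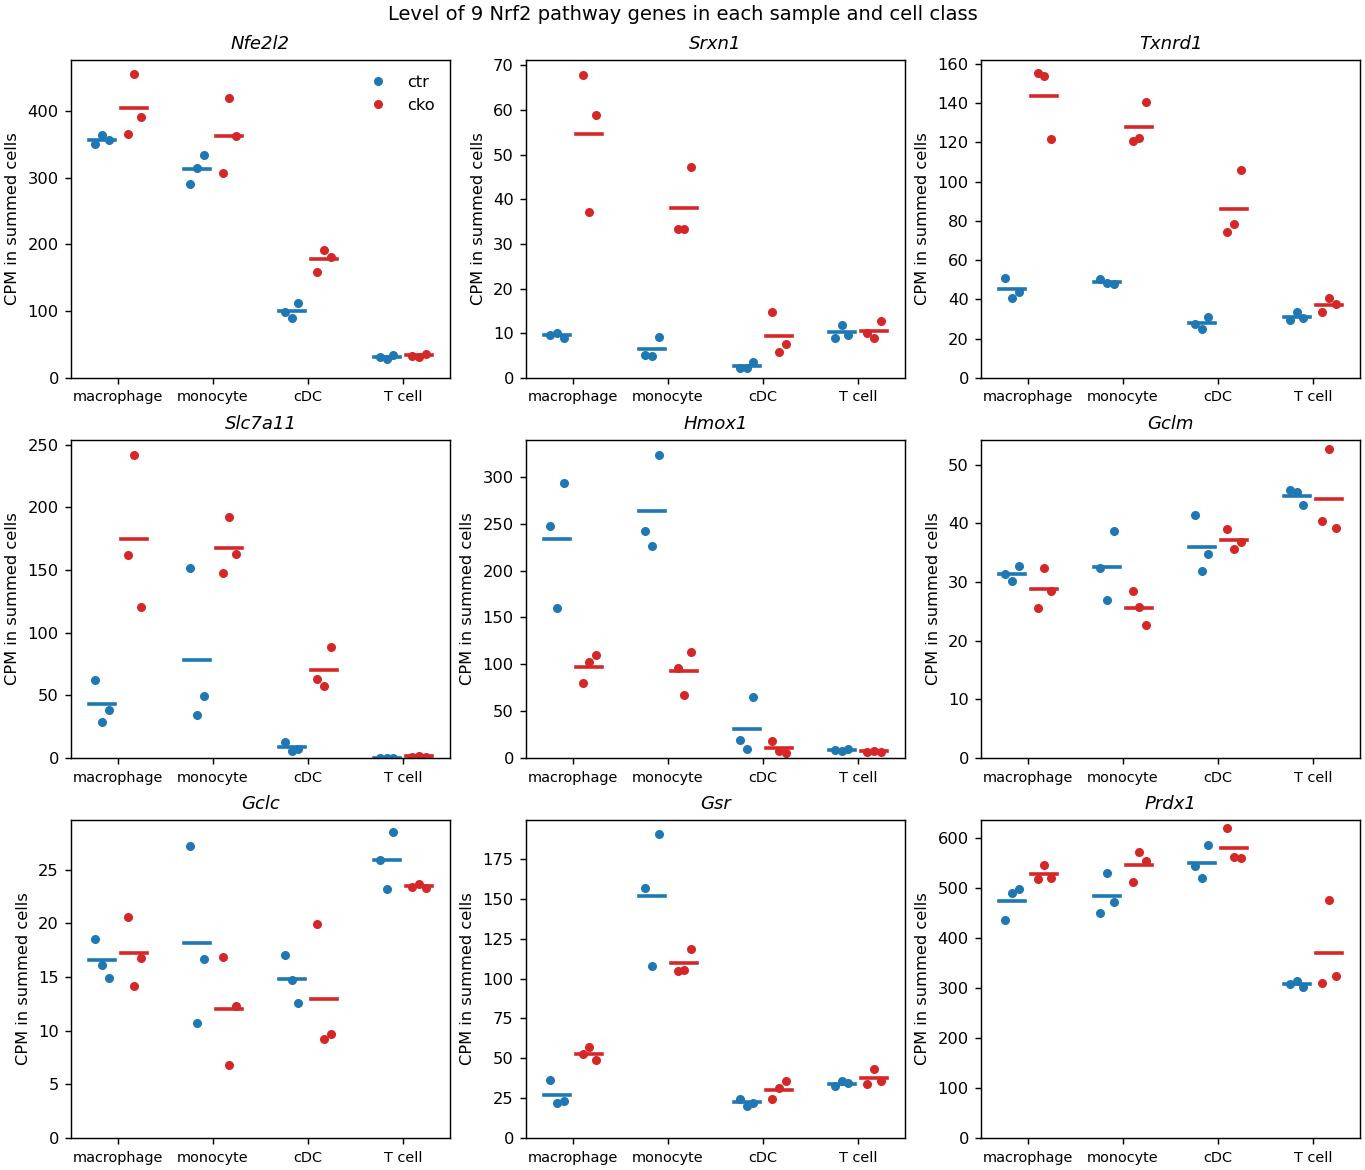
Level of each of 9 genes in CPM (vertical axes, from 0) in macrophages, monocytes, cDC and T cells. Each point is 1 sample (blue ctr, red cko) and each line the mean of 3. The cko points of Srxn1, Txnrd1 and Slc7a11 lie above all ctr points in macrophages, those of Hmox1 below, and Gsr stands highest in monocytes.

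Between the groups of mice, macrophages of cko tumours held more transcripts of Srxn1, Txnrd1, Slc7a11 and Gsr and fewer of Hmox1, so that genes usually listed together under Nrf2 stood on both sides. Of the 9 fitted members, 4 were past the adjusted threshold of 0.05 on the higher side and 1 on the lower side in macrophages, where 11.7% and 10.1% of 10835 genes were. The median log2 fold change of the 9 was 0.25, against -0.03 over all genes. All cko sums lay above all ctr sums for 6 members and below for 1, where 15.2% and 25.7% of genes did. Fewer cells with a transcript and fewer transcripts per cell are not separated in such sums.

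In the order of replicates 1 to 3, Srxn1 stood at 9.68, 10.05 and 8.82 CPM in ctr macrophages and 67.9, 37.1 and 58.9 CPM in cko macrophages (UMIs behind them: 97, 176 and 109, then 349, 94 and 442). The ctr samples lay close together, and every cko sample was above them. The fitted log2 fold change of cko over ctr was 2.62 (SE 0.20). Txnrd1, the cytosolic thioredoxin reductase, was at 51.01, 40.8 and 43.7 CPM in ctr and 155, 154 and 122 CPM in cko, with a log2 fold change of 1.74 (SE 0.14), and its groups were likewise separate.

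Slc7a11 was more uneven: 62.6, 28.9 and 38.5 CPM in ctr and 162, 242 and 120.3 CPM in cko, a log2 fold change of 2.08 (SE 0.40). The groups did not overlap, but ctr replicate 1 stood above the other ctr samples and cko replicate 2 above the other cko samples. Gsr was at 36.2, 21.8 and 22.99 CPM in ctr and 52.9, 56.8 and 48.9 CPM in cko, a log2 fold change of 1.04 (SE 0.19), again with ctr replicate 1 the highest ctr sample. The number of members past the threshold on the higher side was 3 without ctr replicate 3 or cko replicate 1, and 3 higher and 0 lower without a filter on low counts.

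Hmox1 ran the other way. It was at 248, 159.6 and 293 CPM in ctr and 80.4, 102 and 109.6 CPM in cko, and all cko samples were below all ctr samples, with a log2 fold change of -1.196 (SE 0.23). The spread was widest within ctr, where replicate 2 was lowest.

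The other members moved little. Nfe2l2 was at 351, 364 and 356 CPM in ctr and 365, 455 and 392 CPM in cko macrophages, so that the lowest cko sample was just above the highest ctr sample and the log2 fold change was 0.25 (SE 0.10). Prdx1 was at 435, 489.6 and 498 and 517, 546 and 519 CPM, with 0.23 (SE 0.09). Gclm (30.1 to 32.8 CPM in ctr, 25.5 to 32.3 in cko) and Gclc (14.9 to 18.6 and 14.2 to 20.6 CPM) overlapped, with log2 fold changes of -0.08 (SE 0.12) and 0.16 (SE 0.16).

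The macrophages of the 2 groups also differed in other ways, whose part in these values was not tested. All 11 macrophage markers were detected in every sample, but C1qa was at 4037, 3474 and 4359 CPM in ctr and 1219, 1444 and 1491 CPM in cko, and Apoe at 14018, 10687 and 11573 and 2680.4, 3027 and 3695 CPM. Arg1, the arginase of suppressive tumour macrophages and also one of the gate's markers, was at 1159, 805 and 1101 CPM in ctr and 2360.5, 2271 and 2162 CPM in cko, and Nos2, the inducible nitric oxide synthase, at 70.9, 13.3 and 14.2 and 202, 235 and 168 CPM. The 8 monocyte markers summed to 4518 to 6564 CPM in ctr and 4768 to 8158 CPM in cko macrophages. Median depth was 8544 to 10075.5 UMIs per ctr macrophage and 6605 to 9105 UMIs per cko macrophage.

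To put cells of different depth on the same footing, each was thinned to 2000 UMIs, which left out 90 ctr and 39 cko macrophages. The share of macrophages with a Srxn1 UMI was then 1.31% to 2.15% in ctr samples and 8.69% to 12.9% in cko samples, where 6.04% to 8.19% and 21.7% to 26.8% had been counted without thinning. Slc7a11 was found in 4.12% to 9.17% of thinned ctr macrophages and 17.8% to 31.0% of thinned cko macrophages (14.2% to 22.2% and 36.1% to 54.5% without thinning). In T cells, which can take up free RNA from other cells in the droplets, at a median depth of 5922.5 to 7116 UMIs a cell, the thinned Slc7a11 share was at most 0.260% and the thinned Srxn1 share 1.88% to 2.28%. Hmox1 was found in 19.1% to 25.1% of thinned ctr and 12.9% to 15.4% of thinned cko macrophages (46.4% to 51.7% and 27.9% to 38.3% without thinning). The order of the groups was thus that of the CPM values for all 3 genes.

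Monocytes, the blood-derived precursors of most tumour macrophages, showed the same order for Srxn1, Txnrd1 and Hmox1 but not for Gsr. The number of members past the threshold was 2 on the higher and 1 on the lower side of 9, where 2.05% and 0.873% of 7900 genes were. All cko sums lay above all ctr sums for 2 members and below for 1, where 9.15% and 12% of genes did. Srxn1 was at 5.18, 4.84 and 9.09 CPM in ctr and 33.3, 33.4 and 47.3 CPM in cko, a log2 fold change of 2.63 (SE 0.29), with only 4, 9 and 12 UMIs behind the ctr values. Txnrd1 was at 50.5, 48.4 and 47.7 CPM in ctr and 121, 122 and 140.5 CPM in cko, a log2 fold change of 1.44 (SE 0.14). In both genes the ctr samples were the low ones and no sample overlapped.

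Hmox1 was at 242, 226 and 323 CPM in ctr and 95.9, 67.5 and 114 CPM in cko monocytes, with a log2 fold change of -1.45 (SE 0.20) and no overlap. This value depended on the gate. The stricter gate required more lineage and monocyte markers and also allowed fewer markers of macrophages and other classes. It left 9 to 58 monocytes a sample, and the log2 fold change was 0.27. Slc7a11 overlapped, since ctr replicate 1 reached the cko level: 151, 34.4 and 49.2 CPM in ctr and 147, 193 and 163 CPM in cko (1.25 (SE 0.59)), and without ctr replicate 1 the log2 fold change was 2.07. Gsr was at 157, 108 and 191 CPM in ctr and 105, 105 and 118 CPM in cko, with overlapping groups and a log2 fold change of -0.42 (SE 0.18). Arg1 differed here too, at 38.8, 25.8 and 119.6 CPM in ctr and 622, 369 and 483 CPM in cko monocytes. C1qa was at 5.18 to 9.68 CPM in all 6 sums. The gate allowed a monocyte at most 2 macrophage markers, and C1qa and Arg1 are both on that list. The gate itself thus limits C1qa here, and nothing is read from its level beside that of Arg1.

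In cDC, the antigen-presenting cells that carry tumour antigen to T cells, Slc7a11, Txnrd1 and Nfe2l2 were the fitted members with separate groups. These 3 were past the threshold on the higher side and none was on the lower side, of 8 members fitted, where 2.44% and 1.53% of 8290 genes were. Of the fitted members, the same 3 lay wholly above ctr and none wholly below, where 11.3% and 11.2% of genes did. Slc7a11 was at 12.6, 5.78 and 6.76 CPM in ctr and 63.3, 57.5 and 88.6 CPM in cko (3.03 (SE 0.29)). Txnrd1 was at 27.2, 25.04 and 31.1 and 74.5, 78.2 and 106 CPM (1.64 (SE 0.18)). Nfe2l2 was at 99.1, 89.2 and 112 CPM in ctr and 159, 192 and 182 CPM in cko (0.83 (SE 0.13)). The cko samples were the high ones in all 3 genes.

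Srxn1 did not pass the filter in cDC, with 7, 7 and 8 UMIs counted in the ctr sums and 17, 5 and 7 in the cko sums, or 2.096, 2.25 and 3.61 and 14.7, 5.75 and 7.57 CPM. Its cko CPM values all lay above its ctr values, but from these few UMIs. Hmox1 overlapped, at 19.5, 9.31 and 64.9 CPM in ctr and 18.2, 6.904 and 5.404 CPM in cko, with a log2 fold change of -1.46 (SE 1.09) that was -0.42 without ctr replicate 3 and -2.30 without cko replicate 1. Only 57 to 71 cDC came from each cko sample. Ccr7, the receptor of migrating cDC, was at 368 to 549 CPM in ctr and 1143 to 2086 CPM in cko. The 12 cDC markers, Ccr7 among them, summed to 1896.5 to 2256 CPM in ctr and 2966 to 4508 CPM in cko. Other markers of that list overlapped between the groups. Fscn1 was at 350 to 528 CPM in ctr and 290 to 687 CPM in cko, and Ccl22 at 167 to 400 and 253 to 993 CPM. Xcr1, Clec9a and Cd209a overlapped too. The 11 macrophage markers summed to 70.6 to 75.2 CPM in ctr cDC and 44.9 to 58.9 CPM in cko cDC. The part of these shifts in the values was not tested.

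In T cells, the class that includes the Treg cells, 7 of 9 members overlapped between the groups, 1 lay wholly above ctr and 1 wholly below, where 12.9% and 11.3% of genes did. Past the threshold was 1 member on the higher side and none on the lower side of 9, where 0.79% and 1.16% of 12398 genes were. Srxn1 was at 8.94, 11.9 and 9.700 CPM in ctr and 10.1, 9.03 and 12.7 CPM in cko (0.05 (SE 0.16)), and Txnrd1 at 29.5, 33.5 and 30.6 and 33.5, 40.7 and 37.8 CPM (0.24 (SE 0.09)). Both overlapped. Hmox1 was lower in every cko sample by a small amount, 7.94, 7.43 and 9.65 CPM in ctr and 6.37, 7.41 and 6.73 CPM in cko (-0.30 (SE 0.14)). Prdx1 stood out in 1 sample, cko replicate 2, at 311, 475 and 324 CPM in the cko replicates against 308, 315 and 301 CPM in ctr.

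Slc7a11 was found at trace level in T cells: 5, 1 and 1 UMIs in the ctr sums against 22, 36 and 28 in the cko sums, or 0.263, 0.0729 and 0.0519 and 0.915, 1.77 and 1.08 CPM. The fitted log2 fold change was 3.14 (SE 0.56). Relative to the macrophages of the same sample, T cells held 0.135% to 0.420% of the Slc7a11 level in ctr and 0.566% to 0.895% in cko, while for C1qa, which T cells do not make, the ratio was 0.161% to 0.349% and 0.085% to 0.217%. For Arg1 and Lyz2 the cko ratios were 0.151% to 0.221% and 0.169% to 0.222%. The part of free RNA from other cells in the Slc7a11 value was not tested. Slc7a11 was the member counted past the threshold, and it was not when cko replicates 1 and 3 were added together, when ctr replicate 2 or 3 or cko replicate 1 or 3 was left out, with the stricter gate, or when doublets were kept. Without ctr replicate 1 the log2 fold change was 4.22. When T cells were split by their Cd4 and Cd8 transcripts, CD4 T cells held 0, 1 and 0 Slc7a11 UMIs in ctr and 6, 31 and 9 in cko, most of them in cko replicate 2, and CD8 T cells 4, 0 and 1 and 16, 5 and 16.

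Within T cells Srxn1 was not evenly spread. CD4 T cells had 19.96, 20.9 and 16.4 CPM in ctr and 18.7, 12.03 and 22.7 CPM in cko, and CD8 T cells 5.54, 4.42 and 3.07 and 7.34, 8.003 and 9.52 CPM. In CD8 T cells each cko sample was above each ctr sample, while CD4 T cells overlapped. In all 6 samples the CD4 value was above the CD8 value.

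**Figure D2:**
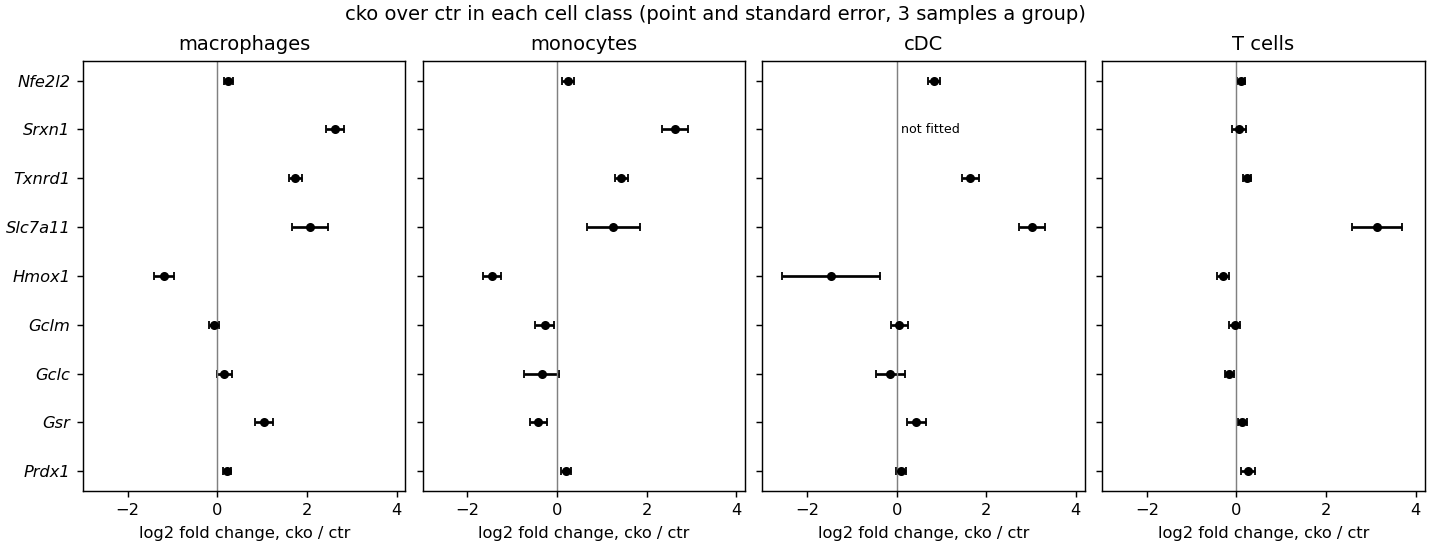
Fitted log2 fold change of cko over ctr (horizontal axes) for 9 genes in each class. Points are edgeR estimates and bars 1 SE, with 3 samples a group. In macrophages and monocytes Srxn1 lies at 2.62 and 2.63, Txnrd1 at 1.74 and 1.44, and Hmox1 at -1.196 and -1.45. Gsr lies at 1.04 in macrophages and -0.42 in monocytes, and in T cells only Slc7a11 lies far from 0. The differences between classes in these estimates were not tested.

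Since Arg1 differed so much between the groups, macrophages were split by whether a cell held an Arg1 UMI. The cells without one made up 41.5%, 44.3% and 40.8% of ctr macrophages and 22.1%, 23.1% and 19.95% of cko macrophages. Arg1 is itself one of the markers of which the gate required at least 5 in a macrophage. A cell without Arg1 therefore had to hold more of the other markers than a cell with it. Of those others, C1qa and Apoe were lower in cko. The part of the gate in these shares, and in the kinds of cell on each side of the split, was not tested. After thinning to 2000 UMIs, 40.3% to 45.7% of ctr and 66.9% to 69.8% of cko macrophages held an Arg1 UMI (55.7% to 59.2% and 76.9% to 80.0% without thinning). A lack of an Arg1 UMI does not show that a cell makes no Arg1, and the median depth of these cells was 8363 to 10093 UMIs in ctr and 7209 to 9359 UMIs in cko.

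The 5 members whose groups stood farthest apart in all macrophages are given on both sides of this split. In Arg1-negative macrophages Srxn1 was at 6.72, 7.54 and 4.47 CPM in ctr and 63.3, 40.2 and 50.9 CPM in cko (3.13 (SE 0.24)), and in Arg1-positive macrophages at 11.5, 12.01 and 11.7 and 69.3, 36.1 and 60.9 CPM (2.32 (SE 0.21)). For Txnrd1 the log2 fold changes were 2.07 (SE 0.22) and 1.51 (SE 0.13), for Slc7a11 2.43 (SE 0.50) and 1.83 (SE 0.45), for Gsr 1.37 (SE 0.29) and 0.86 (SE 0.18), and for Hmox1 -1.39 (SE 0.26) and -1.19 (SE 0.24), Arg1-negative cells first. The differences between these estimates were not tested. Of 9 members, 4 were past the threshold on the higher and 1 on the lower side in Arg1-negative cells, where 6.94% and 4.3% of genes were, and 3 and 1 in Arg1-positive cells, where 8.72% and 7.16% were. With 1 sample left out, 2 to 5 members were past it on the higher side in Arg1-negative cells, and none on the lower side without cko replicate 1 or 2. In Arg1-positive cells the lower side was also empty without ctr replicate 1, cko replicate 1 or cko replicate 2, and with cko replicates 1 and 3 added together, and 4 members were on the higher side without cko replicate 3. None of the 5 genes overlapped between the groups on either side of the split, where 12.4% of genes lay wholly above and 20.8% wholly below in Arg1-negative cells, and 15.3% and 20.3% in Arg1-positive cells. The 5 were picked for their distance in all macrophages, which are the same cells. Nothing is therefore read from their lack of overlap beside these shares.

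The fold change of Nfe2l2 was 0.45 (SE 0.14) in Arg1-negative cells, at 336, 334 and 269.6 CPM in ctr and 363, 481 and 373 CPM in cko, and 0.09 (SE 0.10) in Arg1-positive cells, where the groups overlapped. Prdx1 was the reverse, separate in Arg1-positive cells (0.29 (SE 0.10)) and overlapping in Arg1-negative cells (0.10 (SE 0.13)). Gclc lay below every ctr sample in Arg1-negative cko cells, at 14.5, 5.02 and 14.9 against 19.4, 18.5 and 15.6 CPM, but from 17, 3 and 22 UMIs in the cko sums.

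Arg1-positive cells were split again by a Nos2 UMI. Cells with both made up 12.9%, 3.83% and 3.98% of ctr macrophages and 26.4%, 30.8% and 24.9% of cko macrophages. They numbered only 142, 65 and 56 in ctr, and 190, 88 and 217 in cko. The share of all genes with separate groups was not computed for the subsets split by Nos2. Nothing is therefore read from separate or overlapping groups in them. In ctr, Txnrd1 was at 43.4, 33.7 and 27.4 CPM in Arg1-negative cells, 48.5, 44.3 and 52.1 CPM in Arg1-positive Nos2-negative cells and 79.2, 68.9 and 80.7 CPM in cells with both, and each ctr sample rose in that order. In cko the same gene was at 171, 132 and 108, 129, 130.4 and 115 and 187, 202 and 146 CPM, with no common order between the first 2 classes and the highest value in the last in every sample. Slc7a11 in cells with both was at 138, 45.1 and 145 CPM in ctr and 215, 361 and 164 CPM in cko, so ctr replicates 1 and 3 came close to the cko samples there, though none overlapped. Hmox1 overlapped in these cells, at 296, 163 and 88.7 CPM in ctr and 90.7, 159 and 106 CPM in cko. Prdx1 in cells with both was at 450.4, 429.9 and 447 CPM in ctr and 601, 635 and 595 CPM in cko, the largest gap that this gene showed in any macrophage subset.

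**Figure D3:**
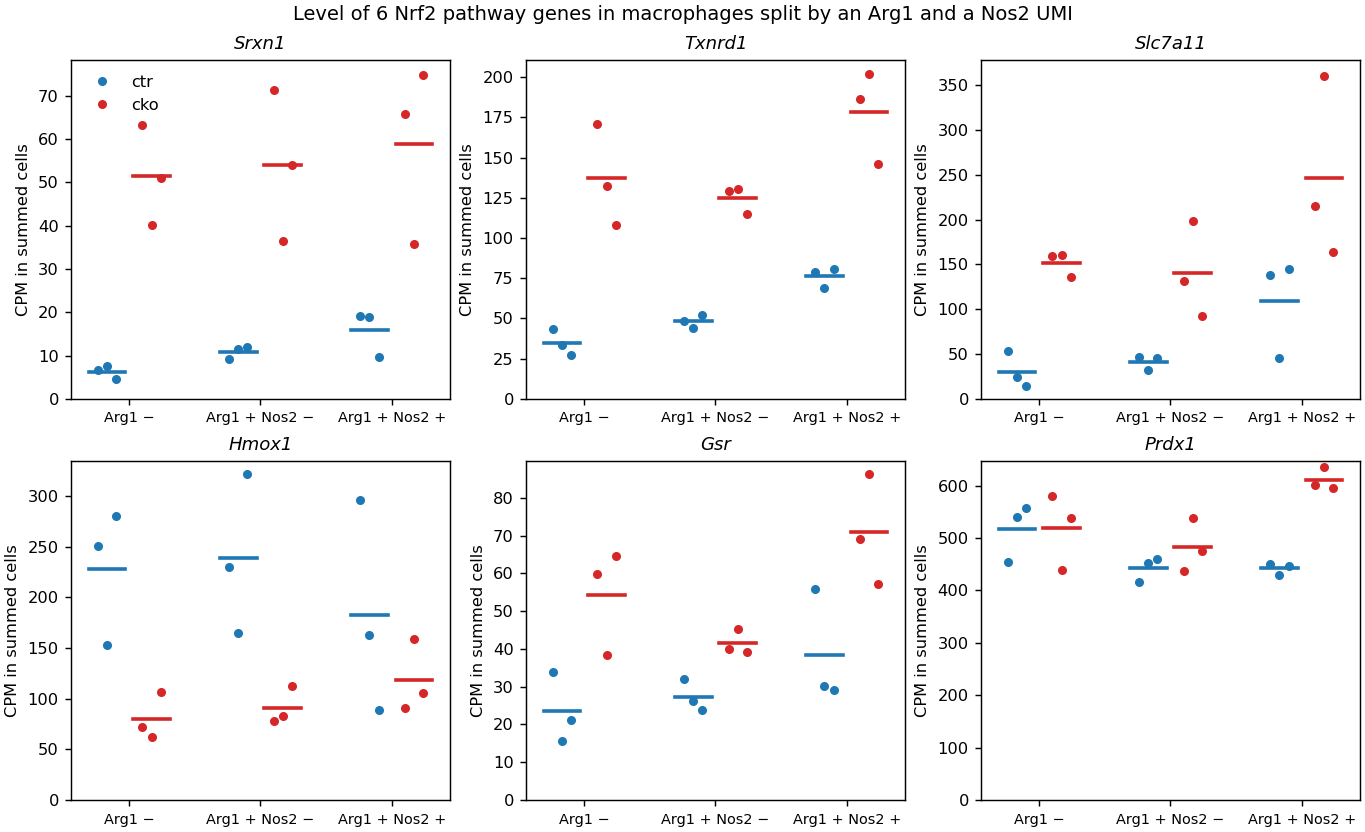
Level of 6 genes in CPM (vertical axes, from 0) in macrophages without an Arg1 UMI, with Arg1 but no Nos2 UMI, and with both. Each point is 1 sample (blue ctr, red cko) and each line the mean of 3. Srxn1, Txnrd1 and Slc7a11 are separate between the groups in all 3 subsets, and Hmox1 overlaps where both Arg1 and Nos2 were found. The share of all genes with separate groups was not computed for the subsets split by Nos2. These genes were listed with this contrast in view, so nothing is read from their separation.

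The 81 other genes of the antioxidant response, in 9 lists by role, were tested between the groups in each class (edgeR quasi-likelihood test, adjusted over all genes). These lists were drawn up with earlier results of these data known. Their adjusted p-values and counts therefore describe the genes and are no independent support for the lists. In macrophages 75 could be tested, of which 16 rose and 13 fell in cko, in a class where 21.8% of all genes passed. The median of the 75 was -0.04 on the log2 scale, against -0.03 for all genes, and the medians of single lists ran from -0.34 (detoxification) to 0.48 (superoxide and peroxide removal). The glutathione list had 5 of 14 genes higher and 1 lower, the thioredoxin and peroxiredoxin list 3 higher and 3 lower of 12, haem and iron 3 higher and 1 lower of 8, and the regulators and partners of Nrf2 3 higher and 1 lower of 12. None of 7 detoxification genes rose and 2 fell. NADPH supply had 0 higher and 1 lower of 6, NADPH oxidase 0 and 1 of 6, superoxide and peroxide removal 1 and 1 of 3, and the ATF4 list 1 and 2 of 7.

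Of the regulators, Keap1, which targets Nrf2 for degradation, had a log2 fold change of -0.30 (SE 0.14, adjusted p = 0.16) and Bach1, the repressor that competes with Nrf2, one of 0.09 (SE 0.11, adjusted p = 0.587). Neither passed the threshold, though Keap1 did without cko replicate 3 (log2 fold change -0.52, adjusted p = 0.0249 by the same test). Maff, a small Maf partner, rose by 0.88 (SE 0.16, adjusted p = 0.00341), from 58.6 ± 11.4 CPM in ctr and 101 ± 11.5 CPM in cko (mean ± SD, n = 3). Cul3, Mafg and Nupr1 were the other 3 called in this list, and Nupr1 fell.

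In the thioredoxin system, Txnip, the inhibitor of thioredoxin, fell by the largest margin: 145 ± 18.8 CPM in ctr and 59.04 ± 3.73 CPM in cko, a log2 fold change of -1.22 (SE 0.12, adjusted p = 9.69e-05). Txn1, thioredoxin itself and the substrate of Txnrd1, was at 605 ± 32.2 CPM in ctr and 1005 ± 47.7 CPM in cko, a log2 fold change of 0.80 (SE 0.09, adjusted p = 1.96e-04). Sesn1, a sestrin induced by p53 and FoxO factors, fell (19.4 ± 3.16 CPM in ctr and 8.36 ± 0.735 CPM in cko; log2 fold change -1.13 (SE 0.17, adjusted p = 9.66e-04)).

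Among glutathione genes Abcc1, an exporter of glutathione conjugates, rose (0.94 (SE 0.17, adjusted p = 0.00302)), as did Mgst1, Mgst3, Glrx and Gstp1, while Gsto1 fell. Slc3a2, the heavy chain that pairs with Slc7a11 to form the cystine transporter, was at 391 ± 40.7 CPM in ctr and 483 ± 93.4 CPM in cko (0.38 (SE 0.14, adjusted p = 0.0795)) and did not pass. Sod2, the mitochondrial superoxide dismutase induced by NF-κB, was at 179 ± 16.6 CPM in ctr and 339.8 ± 26.9 CPM in cko, and its log2 fold change was 1.00 (SE 0.10, adjusted p = 1.19e-04).

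Of the iron genes, Fth1, the ferritin heavy chain, rose (0.53 (SE 0.10, adjusted p = 0.00366)) and Ftl1, the light chain, did not pass at -0.20 (SE 0.08, adjusted p = 0.0845). Tfrc, the transferrin receptor, rose by 1.00 (SE 0.20, adjusted p = 0.00581) from a low level of 6.66 ± 1.34 CPM in ctr and 12.1 ± 2.61 CPM in cko. Hmox2, the constitutive haem oxygenase, fell and Blvrb, a biliverdin reductase, rose.

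Of the ATF4 list, Atf4 itself had a log2 fold change of 0.40 (SE 0.13, adjusted p = 0.0476) with overlapping samples. Atf4 missed the threshold when any one sample but cko replicate 2 was left out. It also missed it with cko replicates 1 and 3 added together, with the stricter gate and with library size alone. The serine synthesis enzyme Phgdh (-1.404 (SE 0.39, adjusted p = 0.0255)) and the amino acid transporter Slc7a5 (-0.86 (SE 0.16, adjusted p = 0.0044)) fell. Phgdh was at a low level, 3.06 ± 0.543 CPM in ctr and 0.924 ± 0.616 CPM in cko. It missed the threshold without ctr replicate 2, cko replicate 1 or cko replicate 2, and with the stricter gate. Under scaling by library size alone the higher share of all genes called in macrophages changed from 53.7% to 41.3%, with a median over all genes of -0.10, and the listed genes called became 15 higher and 17 lower.

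**Figure D4:**
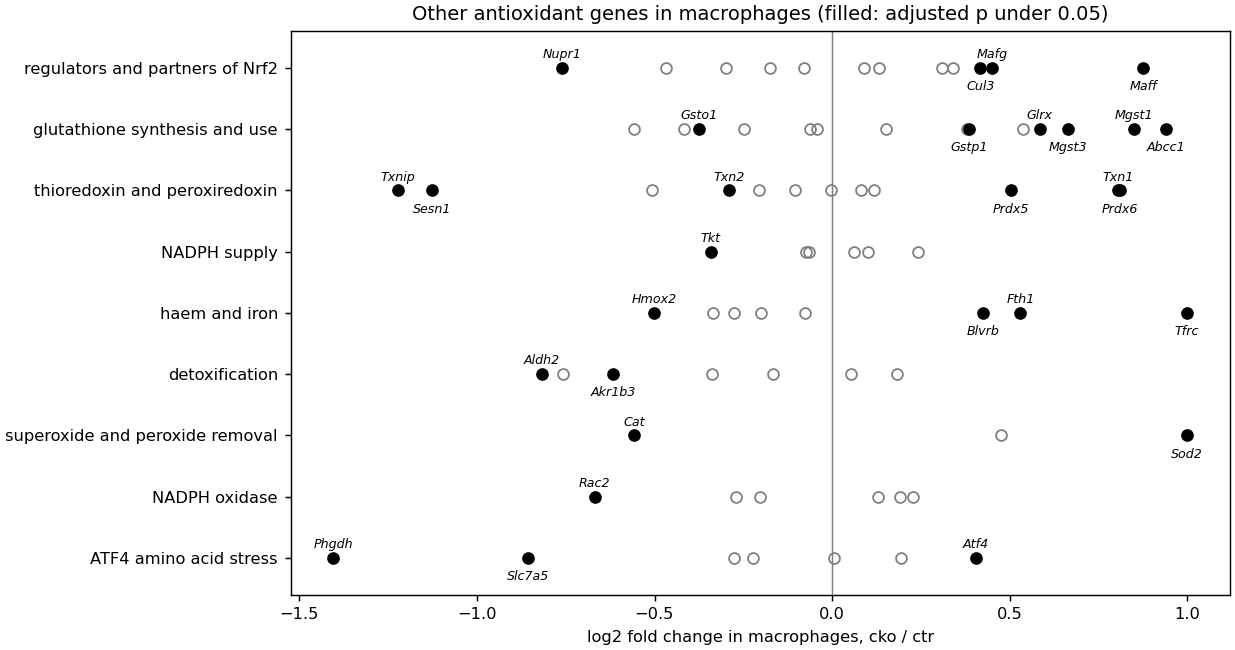
Log2 fold change of cko over ctr in macrophages (horizontal axis) for the 75 tested genes of the 9 lists. Each circle is 1 gene, filled and named where the adjusted p was under 0.05. Filled circles lie on both sides of 0: 16 to the right and 13 to the left, with Phgdh and Txnip farthest left and Tfrc and Sod2 farthest right.

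Fewer genes of these lists passed in the other classes. In monocytes 3 rose and 1 fell of 66 tested, where 2.92% of all genes passed: Sod2 (0.79, adjusted p = 0.0122), Blvrb (0.76, adjusted p = 0.0128) and Txn1 (0.46, adjusted p = 0.0478) rose and Txnip (-0.83, adjusted p = 0.0245) fell, on the log2 scale, each in the direction it took in macrophages. None of these 4 passed without cko replicate 1, without cko replicate 3 or with the 2 added together. In cDC 4 rose and 2 fell of 66, where 3.97% passed. Blvrb (1.23, adjusted p = 0.011), Phgdh (1.18, adjusted p = 0.0484), Slc3a2 (0.65, adjusted p = 0.0258) and the ferritin light chain Ftl1 (0.39, adjusted p = 0.0403) rose, and Rac2, a subunit of the phagocyte NADPH oxidase (-0.59, adjusted p = 0.0172), and Taldo1, of the pentose phosphate pathway (-0.37, adjusted p = 0.0454), fell. Both chains of the cystine transporter thus stood higher in cko cDC. None of these 6 passed without cko replicate 1, and Blvrb was the only one of them to pass with cko replicates 1 and 3 added together. In T cells none rose and 2 fell of 74, where 1.95% of all genes passed: Cybb, the catalytic subunit of the phagocyte oxidase (-1.57, adjusted p = 0.00989), and Gsto1 (-0.62, adjusted p = 0.044), which missed the threshold in each fit with 1 sample left out except that without cko replicate 2. Cybb is a myeloid gene, and it was at 6.74 ± 0.4202 CPM in ctr and 2.28 ± 0.316 CPM in cko, while the 11 macrophage markers summed to 45.7 to 106 CPM in ctr T cells and 18.9 to 29.8 CPM in cko T cells. The part of free myeloid RNA in this value was not tested.

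Over the 24 sums of 4 classes and 6 samples, the 9 members did not share one profile. Pearson's r with their mean standardised profile (log2 of CPM plus 1) was 0.89 for Slc7a11, 0.84 for Nfe2l2, 0.83 for Txnrd1, 0.73 for Hmox1, 0.67 for Srxn1, 0.67 for Gsr, 0.56 for Prdx1, -0.26 for Gclc and -0.64 for Gclm. Each of the 9 is itself part of that mean, which raises its r. These values are therefore not on the same footing as those of genes outside the list. The genes outside the list with the profile most like that mean were Rnf217 (r = 0.93), Slc16a3, a lactate exporter (0.93), Cstb, the protease inhibitor cystatin B (0.93), Sgms2, a sphingomyelin synthase (0.92), and Rab44 (0.92). These values describe sums that share samples, libraries and cell classes.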

How the data were processed

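The authors deposited, for 6 samples, matrices of raw UMI counts of genes in cell barcodes, made with Cell Ranger 7.0.0 on GRCm38 (mm10) per the submitters' processing notes, and, per the file headers, contig tables of T cell receptors with UMI counts. The sources used here do not say whether free RNA or doublets had been removed. No reads were reprocessed.

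Barcodes under 300 genes or 500 UMIs, or above 10% mitochondrial counts, were dropped (39424 of 41679 passed). Scrublet's automatic threshold marked 442 barcodes, so a fixed share of top scores was taken out instead, 0.8% for every 1000 barcodes (2328 in all). Classes were gated by detected markers: at least 5 of 9 T cell markers, at least 4 of 7 lineage markers with at least 5 of 11 macrophage markers (macrophages) or at most 2 of these and at least 3 of 8 monocyte markers (monocytes), and at least 3 of 12 cDC markers. Upper limits held in every class for markers of B cells and plasmacytoid dendritic cells. T cell, cDC and lineage or macrophage markers were limited in the classes they do not define. Neutrophil markers were limited only in macrophages and monocytes. Monocyte, NK cell, mast cell, tumour and stroma markers had no upper limit in any class. The markers were fixed first and these numbers chosen after the data were seen; 1243 macrophages sat at the cut. The 10931 cells in no class and 2554 between monocytes and macrophages were left out. CD4 T cells held a Cd4 UMI and no Cd8 UMI, or the reverse for CD8 T cells.

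Counts were summed per sample and class (772682 to 26005565 UMIs) and compared with edgeR 4.0.16 (quasi-likelihood, TMM, filterByExpr, robust), cko over ctr within a class, or between classes with the sample as a block, with Benjamini-Hochberg adjustment over all genes tested at 0.05. The self-test on simulated counts was run with the same code. Alternatives were DESeq2 1.42.0, library size only, no filter, a replicate block, samples left out, cko replicates 1 and 3 added together, a stricter gate and no doublet removal. The genes, lists, motifs and tests were chosen with earlier results of these data known. Of the lists, genes were named if past the threshold with separate groups, up to 8 of the largest change a class, beside Keap1, Bach1, Fth1, Ftl1, Txn1, Slc3a2 and Atf4, and the figure and the sentences on single lists name others past the threshold, chosen after their values were seen. The 5 most similar genes were taken by Pearson's r. Thinned shares and ratios cover counting of molecules only.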

Additional observations from a re-analysis of the deposited data

How the results depend on the processing

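Counts of genes past the threshold moved by more than 1.5 times in these cases. In macrophages (2362 genes) the stricter gate gave 1190. In monocytes (231) no filter gave 569, the replicate block 152, cko replicates 1 and 3 added together 48, and the stricter gate 16. In cDC (329) the same settings gave 782 without a filter, 162 with the 2 samples added together and 113 with the stricter gate. In T cells (242) DESeq2 gave 681 and adding the 2 samples 30. In Arg1-positive macrophages (1617) adding them gave 980, and for macrophages against monocytes (1827) the stricter gate gave 751. Leaving out 1 sample gave 1259 to 2567 genes in macrophages, 31 to 397 in monocytes, 109 to 539 in cDC, 28 to 730 in T cells, 780 to 1622 in Arg1-positive and 365 to 1249 in Arg1-negative macrophages, 1241 to 1679 for macrophages against monocytes, 5516 to 6248 against cDC and 8042 to 8634 against T cells. The cause of these moves was not tested, except that the stricter gate and the samples left out or added leave less data.

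Of the members, Hmox1 in monocytes was at 0.27 under the stricter gate. Between macrophages and monocytes, where only Gsr was called, signs turned for Txnrd1 (-0.065 with the stricter gate, -0.084 in ctr alone, -0.029 to 0.13 with 1 sample left out), Hmox1 (0.0027 without a filter, 0.84 with the stricter gate, -0.15 to 0.070 with 1 sample left out), Gclm (-0.10 with the stricter gate, -0.0028 in ctr alone), Gclc (-0.045 with the stricter gate) and Prdx1 (0.0012 with DESeq2, 0.052 without a filter, 0.0088 in ctr alone, -0.030 to 0.027 with 1 sample left out). Prdx1 against cDC was at 0.012 without a filter, and Gsr against T cells at -0.11 in ctr alone. Without the sample block Txnrd1 against cDC missed the threshold (0.94, adjusted p = 0.0746), and with library size alone Gclm (-0.27) and Prdx1 (-0.18) against cDC and Gclc against T cells (-0.57) passed it. With cko replicates 1 and 3 added together, the members past the threshold stayed 4 higher and 1 lower in macrophages, 2 and 1 in monocytes and 3 and 0 in cDC, and became 0 and 0 in T cells. They were 3 and 0 in macrophages without a filter and 2 and 0 in monocytes under the stricter gate. Of 23 calls among the named pathway genes, 10 held under all 13 alternatives run, 9 of them in macrophages (Txnip, Sesn1, Tfrc, Sod2, Abcc1, Maff, Slc7a5, Fth1 and Txn1) and Cybb in T cells, and 13 were lost under 2 to 10 of them. Depth limits Nqo1 in every class and Srxn1 in cDC.

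Samples with the same replicate number did not deviate together more than others (r of deviations from -0.09 to 0.10, against -0.11 to 0.15 for unlike numbers). No pairing by number was seen, but with 3 samples a group this check cannot exclude one. With the replicate block the members past the threshold were 3 higher and 1 lower in macrophages and 0 in T cells, the calls were lost for Txn1 and Txnip in monocytes, Taldo1 in cDC and Gsto1 in T cells, and the counts were 2211 in macrophages, 349 in cDC, 194 in T cells, 1299 in Arg1-positive and 1451 in Arg1-negative macrophages.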

Other observations

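The 2554 cells gated between monocytes and macrophages (1269 in ctr and 1285 in cko) entered no comparison. Their Slc7a11 level was 200.1, 50.9 and 69.99 CPM in ctr and 214, 267 and 199 CPM in cko, and in 6 of 6 samples it was above that of both monocytes and macrophages of the same sample. Srxn1 was at 11.6, 9.03 and 9.83 CPM in ctr and 71.6, 54.5 and 61.6 CPM in cko, and Txnrd1 at 82.3, 54.7 and 58.6 and 170.3, 164 and 155 CPM. Hmox1 ranged more widely, at 257, 143 and 524 CPM in ctr and 110.0, 59.8 and 126 CPM in cko, above both other classes in 4 of 6 samples and below both in the replicate 2 samples. Gsr was at 83.5, 58.7 and 139.6 and 83.7, 77.03 and 102 CPM, between monocytes and macrophages in all 6 samples.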
